A study of Mus musculus with 10 samples.

Results

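The genes described here drive and time cell division: 42 genes of the G2 phase and mitosis, taken as a fixed list by gene name and not by any measured value. Of these 42 genes, 41 had a probe set annotated to them alone on the array, and all 41 were bright enough to be tested, among 12735 tested genes of 18193 genes with a probe set. Ccnb1, which encodes cyclin B1, was not analysed here. Each gene was read from its brightest probe set, in log2 units, and the 41 genes had means over all arrays between 7.53 and 11.75 log2 units.

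The cells came from a mouse model of T cell acute lymphoblastic leukemia, T-ALL for short, in which ICN1, an activated form of the receptor NOTCH1, had caused the disease. They were sorted from bone marrow of secondary recipient mice by flow cytometry on GFP or a similar marker. Every leukemia, whichever treatment its host was given, carried a ROSCreERT2 transgene, an inducible Cre recombinase, and 2 floxed copies of CnB1, whose current symbol is Ppp3r1 and which encodes the regulatory subunit of the phosphatase calcineurin. TAM arrays (n = 5) came from leukemic mice given tamoxifen, which activates this Cre and deletes CnB1. OIL arrays (n = 5) came from leukemic mice given the corn oil carrier, in which CnB1 was kept. No array had tamoxifen without floxed CnB1, so effects of the drug or of Cre activity and effects of the deletion cannot be told apart. The ages of the mice are not given in the labels.

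Both treatments had arrays labelled 204, 206, F3.1, F3.2 and F3. What these names stand for is not stated, nor whether any 2 arrays of a group are from different mice, so the p-values reflect the spread among these 10 arrays, which may be technical. F3.1 and F3.2 match between treatments only once a trailing number, which differs between them, is dropped from the sample name. The split of the labels into 204 and 206 on one side and the 3 F3 labels on the other follows their names, and it was chosen knowing that these arrays separate along it.

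Entry into mitosis is driven by the kinase CDK1 bound to A- and B-type cyclins, held back by WEE1 and released by CDC25 phosphatases. Polo and Aurora kinases then build the spindle, the spindle assembly checkpoint delays anaphase until every kinetochore is attached, and the anaphase-promoting complex (APC/C) with CDC20 destroys cyclin B and securin to end mitosis. Many of these genes are transcribed together in G2, through complexes of MuvB with B-MYB and FOXM1 at a promoter element called the CHR (cell cycle genes homology region), often with CCAAT boxes bound by NF-Y. In quiescent cells the DREAM complex represses the same promoters. In bulk RNA from sorted cells, a lower share of cells in G2 and mitosis and less RNA per dividing cell cannot be told apart.

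The CHR and CCAAT letters can be read directly in the promoters, which are shown here because these genes are known to share them. RefSeq promoter windows of GRCm38.p6, from 250 bases before to 50 bases after the transcription start, were matched by symbol for 34 of the 42 genes. Those of Incenp, Kif20a, Ccna2, Tpx2, Cdc25c, Wee1, Foxm1 and Aurkb were not used here. The 5 genes with a promoter window among those that differed between labels in the test given further on are printed, together with Cdc25b, the gene that ran furthest against the others. Each line holds the 120 bases from 100 before to 20 after the start, read 5′ to 3′ on the gene's strand, with capitals for CHR letters (TTTGAA or its reverse complement TTCAAA, or TTCGAA) and for CCAAT or its reverse complement ATTGG.
Cdc20, chr4:118437324-118437443, minus strand: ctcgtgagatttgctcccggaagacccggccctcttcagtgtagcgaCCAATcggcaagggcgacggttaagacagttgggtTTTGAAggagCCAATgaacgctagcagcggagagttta
Kif11, chr19:37376282-37376401, plus strand: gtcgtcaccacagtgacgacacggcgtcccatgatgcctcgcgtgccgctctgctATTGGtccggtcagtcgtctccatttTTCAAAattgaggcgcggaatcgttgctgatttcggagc
Cenpf, chr1:189688067-189688186, minus strand: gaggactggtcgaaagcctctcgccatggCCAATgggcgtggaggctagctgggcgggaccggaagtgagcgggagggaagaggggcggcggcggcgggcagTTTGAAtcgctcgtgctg
Ube2c, chr2:164769829-164769948, plus strand: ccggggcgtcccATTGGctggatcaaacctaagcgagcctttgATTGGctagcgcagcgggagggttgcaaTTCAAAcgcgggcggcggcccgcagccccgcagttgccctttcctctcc
Ttk, chr9:83834589-83834708, plus strand: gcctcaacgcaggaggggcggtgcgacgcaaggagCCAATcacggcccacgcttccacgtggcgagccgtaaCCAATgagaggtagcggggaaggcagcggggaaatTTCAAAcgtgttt
Cdc25b, chr2:131186848-131186967, plus strand: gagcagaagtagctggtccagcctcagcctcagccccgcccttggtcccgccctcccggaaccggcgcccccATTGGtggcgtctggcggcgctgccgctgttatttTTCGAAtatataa

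All 6 printed windows held both kinds of letters, Cdc25b with TTCGAA and the other 5 genes with TTTGAA or TTCAAA. Over the full windows and both strands, 28 of 34 genes (82.4%) had CHR letters, against 21.7% of 27025 genes with a promoter window. CCAAT letters were found in 28 of 34 genes (82.4%), against 41.1% of all genes, and both kinds in 26 of 34 (76.5%), against 8.61%. Neighbouring matches of the CHR and CCAAT letters can share a base, and a match is a description of the sequence and not a measured site. The window of Nuf2, Nusap1, Cenpe, Mad2l1, Birc5 or Ccnb1 held no CHR letters, and these windows cover only the bases near the start.

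The arrays of labels F3.1 and F3.2 stood apart from the rest before any gene of the list was considered. Their Gapdh 3′ minus 5′ signal, a measure of RNA integrity and labelling, was 0.21 and 0.33 log2 units in TAM and 0.26 and 0.26 in OIL, against a range of -0.04 to 0.06 in the other 6 arrays. The standard deviation over all probe sets was 2.36 and 2.37 log2 units in these TAM arrays and 2.35 in both OIL arrays, against 2.38 to 2.43 in the other 6. Array medians differed little (5.07 to 5.13 log2 units). The label difference of each of the 41 genes and some counts over the list are therefore given with and without them. For the label difference, the second sets 204 and 206 against label F3 alone. Counts by pair, of arrays without overlap, of the larger difference and of the highest or lowest label are given with all labels only. The part of these array measures in the results was not tested. The deleted gene followed the treatment labels at 1 of its 2 probe sets, where Ppp3r1 lay between 3.02 and 3.59 log2 units in TAM arrays and between 4.49 and 6.04 in OIL arrays. Its brighter probe set differed by only -0.12 log2 units (TAM minus OIL), and whether either lies in the deleted part is not given. Of the T lineage markers, 11 of 13 had a probe set and all were above the limit set for dim genes (4.59 log2 units), with a list mean of 10.24 to 10.68 in TAM arrays and 10.24 to 10.85 in OIL arrays. By their mean over the arrays, 4 of 7 B lineage markers with a probe set (Cd79a, Cd79b, Ms4a1 and Ebf1) were below that limit, while Pax5, Vpreb1 and Igll1 were above it, Igll1 with means of 5.89 in TAM and 6.07 in OIL. Of 12 myeloid markers with a probe set, 9 were above it, with means of 8.15 in TAM and 7.22 in OIL for S100a8 and of 7.38 in TAM and 6.69 in OIL for Ngp. The other 3, Mpo, Ctsg and Itgam, were below it by mean but reached 5.10, 4.73 and 5.12 log2 units in the TAM F3 array.

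**Figure D1:**
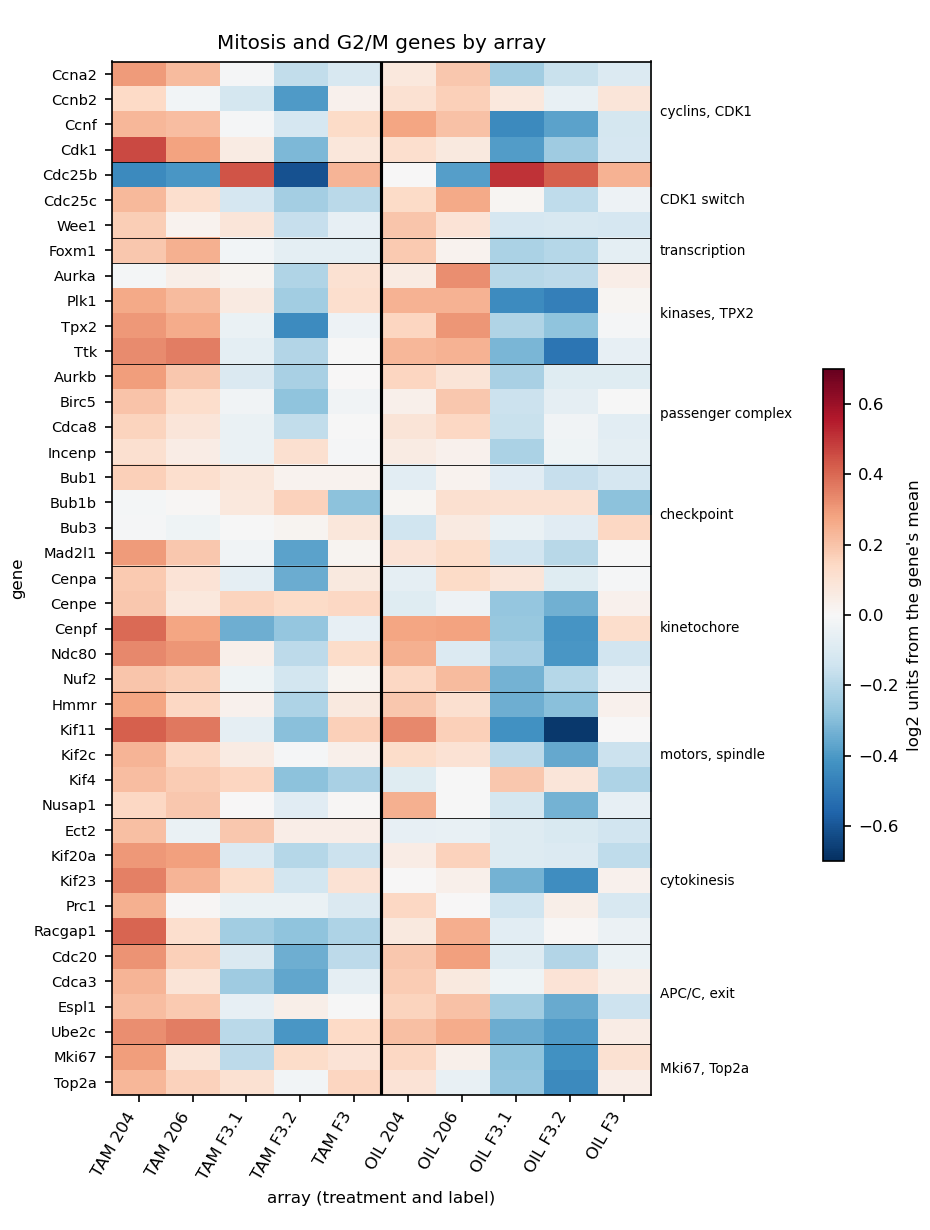
Log2 expression of the 41 genes (rows, grouped by role) in the 10 arrays (columns, TAM left of the thick line and OIL right of it), coloured by the difference from each gene's own mean over the arrays in log2 units. The 204 and 206 columns are mostly red and the F3.1 and F3.2 columns mostly blue in both treatments, and Cdc25b shows the opposite colours in most arrays.

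Tamoxifen was followed by no called change in any of the 41 genes. Their differences (TAM minus OIL) ran from -0.31 log2 units for Cdc25b to 0.28 for Kif23, with a median of 0.09, against a median of -0.03 over all tested genes. In 31 of 41 genes the TAM mean was the higher one (75.6%), against 41% of all tested genes. By limma over all 10 arrays with no block, 0 of 41 genes passed an adjusted p of 0.05 (Benjamini-Hochberg), where 0.471% of tested genes did, and the smallest adjusted p was 0.179, for Cenpe. At an unadjusted p under 0.05 there were 5 genes of the list (12.2%), against 13.0% of all tested genes. With the label as a block, limma called 0 of 41 genes, where 3.38% of tested genes were called, with a smallest adjusted p of 0.0813, for Ndc80. At an unadjusted p under 0.05 the blocked fit had 10 of 41 genes (24.4%), against 22.4% of all tested genes, a share close to the background.

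The precision of these arrays bounds what could have been missed. The 95% intervals of the 41 differences together covered -0.83 to 0.70 log2 units without the block, and 33 of the 41 lay wholly within 0.5 log2 units of 0, all 41 within 1. With the block, 40 of the 41 lay within 0.5 log2 units. The 2 widest intervals belonged to Cdc25b, from -0.83 to 0.21, and Kif11, from -0.22 to 0.70.

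**Figure D2:**
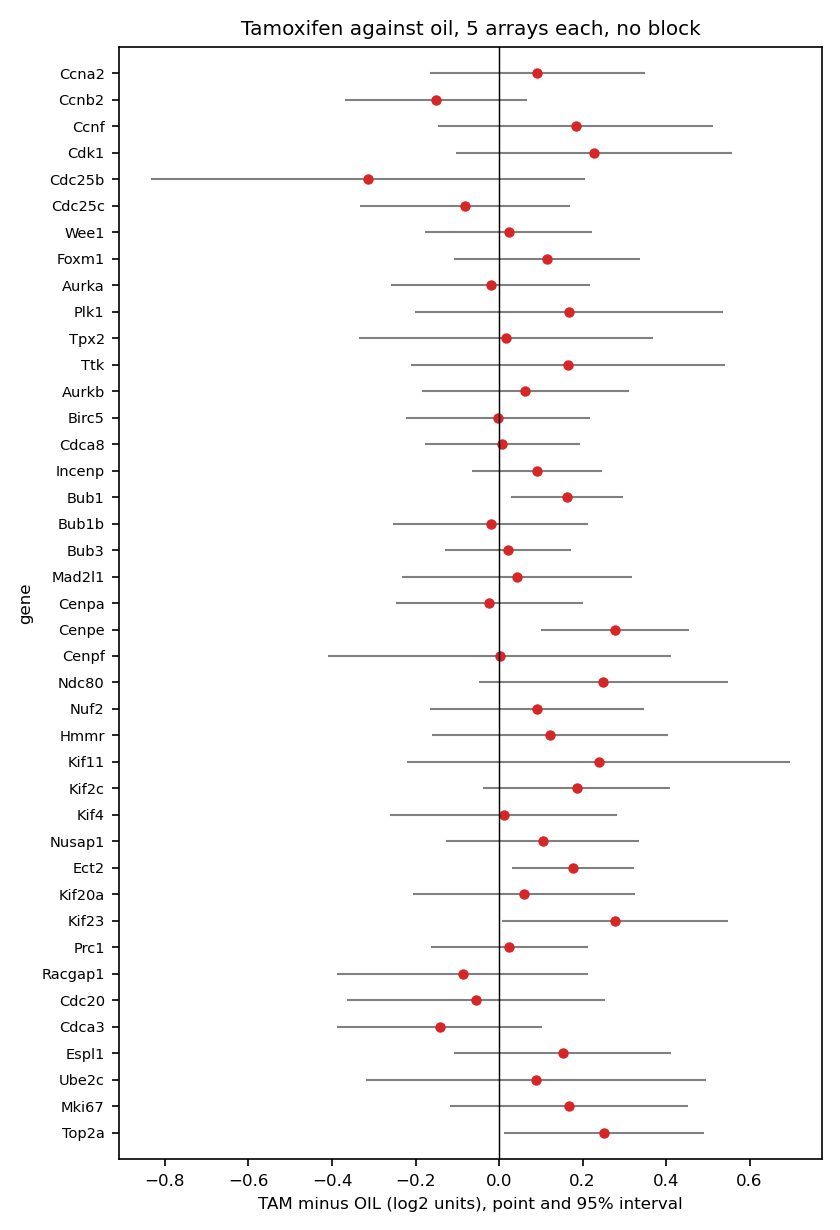
Difference between 5 TAM and 5 OIL arrays for each of the 41 genes (rows, in the order of the heat map), as points with 95% intervals from limma without a block, on an axis in log2 units. Only the intervals of Top2a, Bub1, Kif23, Cenpe and Ect2 leave out 0, all on the positive side, and none of these 5 passed the adjusted test.

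By pair of arrays with the same label, 11 of 41 genes (26.8%) were higher in TAM in all 5 pairs, where 8.40% of tested genes were. These were Top2a, Bub1, Incenp, Kif11, Kif23, Kif2c, Cenpe, Ttk, Hmmr, Ndc80 and Ect2. Only Cdc25b was lower in TAM in all 5 pairs (2.44% of the list), where 13.5% of tested genes were. Label by label, 35 (204), 24 (206), 30 (F3.1), 21 (F3.2) and 26 (F3) of the 41 genes were higher in TAM. The median TAM minus OIL difference of the list was 0.11, 0.02, 0.16, 0.06 and 0.06 log2 units in that order of labels, and the median over all tested genes was negative for each label. All 5 TAM arrays lay above all 5 OIL arrays in 2 genes (4.88%), Cenpe and Ect2, where 1.27% of tested genes did so, and all TAM arrays lay below all OIL arrays in 0 genes of the list, where 1.99% did. Leaving out labels F3.1 and F3.2, 31 of 41 genes were still higher in TAM, with a median of 0.06 log2 units, and 0 of 41 had an unadjusted p under 0.05, where 6.04% of all tested genes did. Leaving out a single array moved the list's median between 0.03, without TAM 204, and 0.13, without TAM F3.2. It was 0.03 without TAM 206 and 0.04 without either OIL F3.1 or OIL F3.2.

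These genes were spread more widely between label families than between treatments. The mean of the 204 and 206 labels was above the mean of the F3 labels in 39 of 41 genes (95.1%), all but Cdc25b and Bub3, against 48.9% of all tested genes. The list's median difference (204 and 206 minus the F3 labels) was 0.26 log2 units, against -0.0043 over all tested genes and 0.015 over those brighter than the median gene. With all labels, the difference between label families was larger in size than that between treatments in 36 of 41 genes, against 57.5% of all tested genes. All 4 arrays of 204 and 206 lay above all 6 F3 arrays in 21 of 41 genes (51.2%), where 6.92% of tested genes did. Label 204 had the highest label mean in 24 genes and 206 in 12, and F3.2 had the lowest in 27.

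With the label as the unit, 2 labels against 3, limma called 0 of 41 genes, where 2.60% of tested genes were called. The smallest adjusted p was 0.082, for Racgap1, and 25 genes of the list (61%) were higher in 204 and 206 at an unadjusted p under 0.05, where 10.2% of tested genes were. A fit that counts the 10 arrays as separate samples called 18 of 41 genes (43.9%) as higher in 204 and 206, where 6.75% of tested genes were, but arrays that share a label are not independent. Without F3.1 and F3.2, 38 of 41 genes stayed higher in 204 and 206 than in label F3 and the median difference was 0.20 log2 units. Over all tested genes that comparison had a median of 0.04, with 56.9% of genes higher. Label F3 is then alone on its side, so this comparison is given by its differences only. A further quantile normalization between arrays left a median of 0.22 log2 units, with 38 of 41 genes higher in 204 and 206.

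Measures of the arrays moved with this difference. The median of the 41 genes, each taken from its own mean, was 0.23 and 0.16 log2 units in the TAM 204 and 206 arrays and 0.13 and 0.11 in the OIL 204 and 206 arrays. For F3.1 it was -0.02 in TAM and -0.19 in OIL, for F3.2 -0.20 in TAM and -0.19 in OIL, and for F3 0.02 in TAM and -0.05 in OIL. Label F3, whose Gapdh 3′ minus 5′ signal was -0.03 in TAM and 0.06 in OIL, near the range of 204 and 206 (-0.04 to 0.05), thus lay between 204 and 206 and the other 2 F3 labels. The mean over the 12 of 13 myeloid markers with a probe set was 4.82 to 5.47 log2 units in the 204 and 206 arrays and 5.34 to 6.74 in the F3 arrays, with S100a8 and S100a9 reaching 10.07 and 9.52 in the TAM F3 array. The mean over 6 stroma and endothelial markers was 4.91 to 5.58 in the 204 and 206 arrays and 4.53 to 4.86 in the F3 arrays. Col1a2 stood out in this list, at 10.24 in TAM 206, 9.29 in OIL 206, 6.55 in TAM 204 and 6.22 in OIL 204. In the F3 arrays it was 4.49 to 6.11. Pecam1 did not follow it and was highest in label F3, at 7.32 in TAM and 7.34 in OIL. Col1a1, Cxcl12 and Cdh5 were below the dim limit by their mean. The part of these measures in the difference between labels was not tested.

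**Figure D3:**
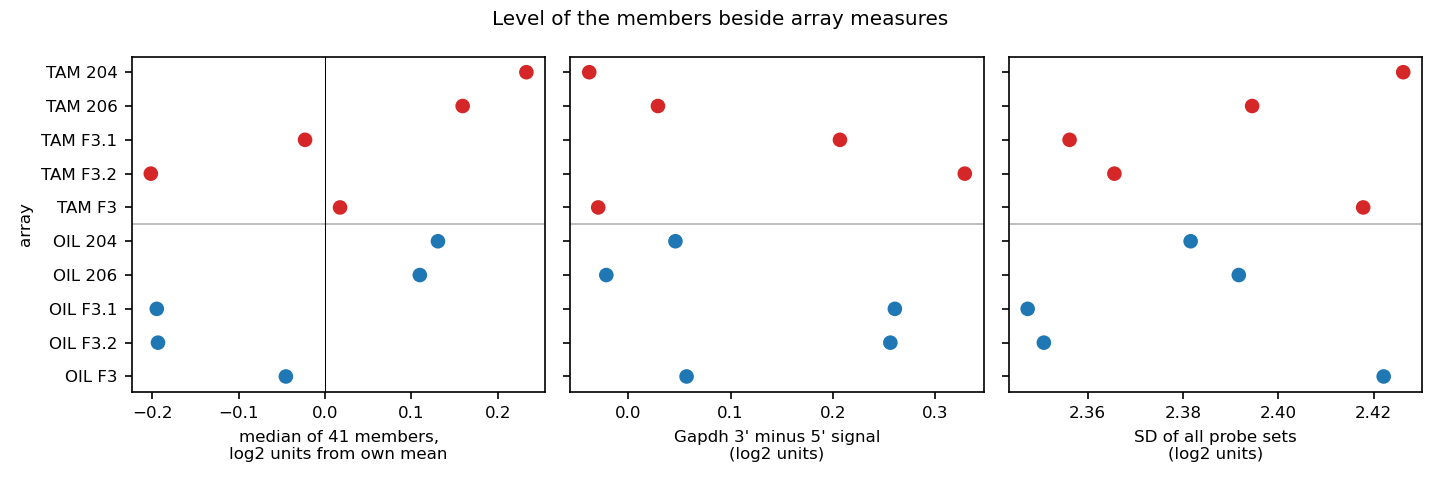
Each row is an array (5 TAM above, 5 OIL below), with the median deviation of the 41 genes in log2 units in the left panel, the Gapdh 3′ minus 5′ signal in log2 units in the middle panel and the standard deviation of all probe sets in log2 units in the right panel. The F3.1 and F3.2 arrays have the lowest medians, the highest Gapdh values and the lowest standard deviations within each treatment, while the F3 arrays have Gapdh values near those of 204 and 206.

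A test over all 5 labels, with the treatment in the model, asked which genes differed between labels by more than the arrays within a label. It called 6 of 41 genes (14.6%), where 10.6% of tested genes were called, and 24 of 41 (58.5%) had an unadjusted p under 0.05, where 30% of tested genes did. Without F3.1 and F3.2 it called 0 of 41 genes, where 12.6% of tested genes were called, with a smallest adjusted p of 0.0645, for Cdc25b, and 12 of 41 (29.3%) had an unadjusted p under 0.05, where 28.2% of tested genes did. With the mean of all probe sets per gene and all labels, it called 13 of 41 (31.7%), where 12.3% of tested genes were called. The 6 genes called from the brightest probe sets with all labels were Ube2c, Kif11, Cenpf, Ttk, Tpx2 and Cdc20, which act at the spindle, at the kinetochore and in the exit from mitosis.

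**Figure D4:**
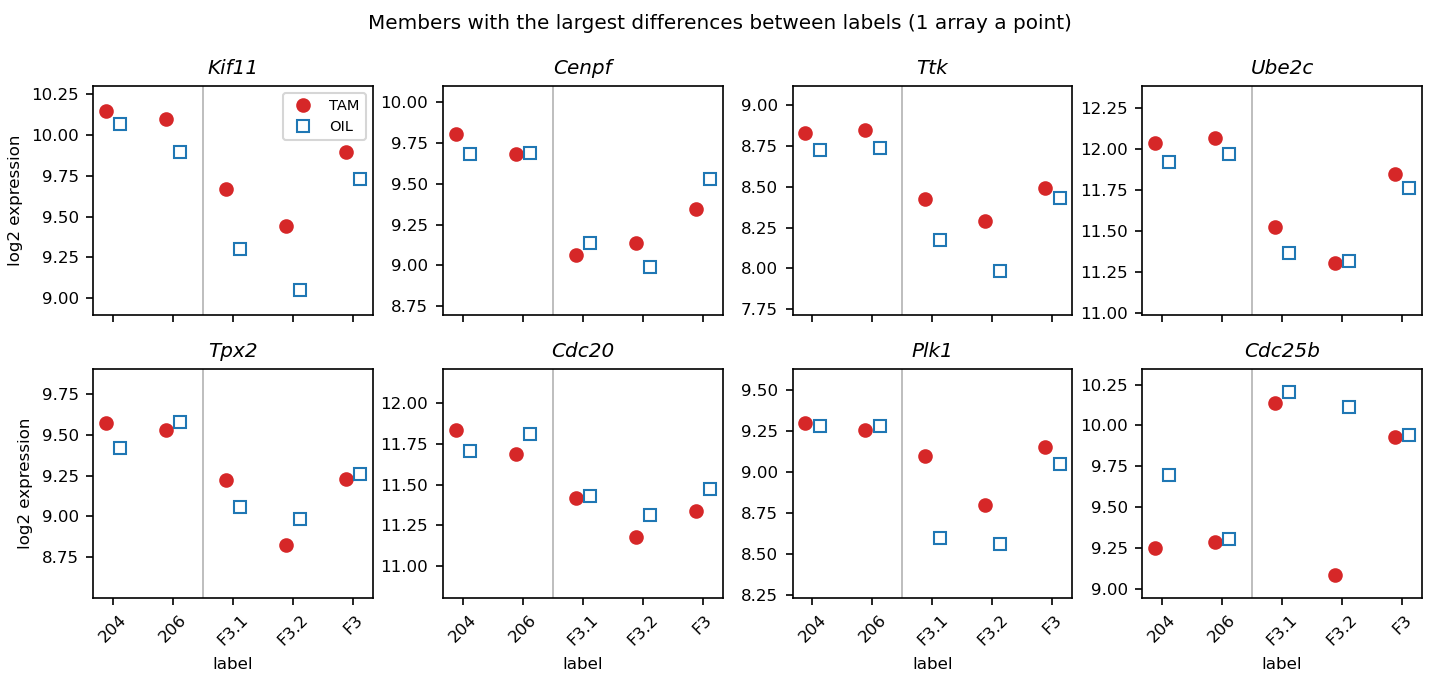
Log2 expression by label for the 8 genes with the largest difference between label families, 1 point per array, filled circles for TAM and open squares for OIL, each panel spanning the same height in log2 units. In 7 of the panels the 4 points of 204 and 206 lie above the 6 points of the F3 labels, while for Cdc25b they lie below 5 of the 6, with TAM F3.2 lowest.

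Among the cyclins and CDK1, all 4 measured genes were higher in 204 and 206 and 3 of 4 had higher TAM means, with 0 called for treatment. Cdk1, the kinase that drives entry into mitosis, read 10.64, 10.45, 10.23, 9.86 and 10.25 log2 units in TAM (204, 206, F3.1, F3.2 and F3, the order used for all genes) and 10.29, 10.24, 9.78, 9.92 and 10.06 in OIL. The groups overlapped, with TAM F3.2 among the low OIL arrays. The means were 10.28 ± 0.29 in TAM and 10.06 ± 0.21 in OIL (SD, n = 5 each), a difference of 0.23 log2 units with a limma adjusted p of 0.578, and of 0.166 with the block. Its label difference was 0.39 log2 units, and 0.25 without F3.1 and F3.2. Ccna2, the A-type cyclin of S phase and G2, was 0.33 log2 units higher in 204 and 206 (0.30 without F3.1 and F3.2) and differed by 0.09 between TAM and OIL. Ccnb2, a B-type cyclin, had a lower TAM mean (-0.15), the only one of the 4 in that direction, and its label difference of 0.16 was 0.04 without F3.1 and F3.2. Ccnf, the F-box protein cyclin F, which marks proteins for degradation and does not drive CDK1, differed by 0.18 between treatments and by 0.39 between label families, or 0.23 without F3.1 and F3.2.

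The genes that set the CDK1 switch did not move as a group. Cdc25b, a phosphatase that activates CDK1 at the start of mitosis, read 9.25, 9.29, 10.14, 9.09 and 9.93 log2 units in TAM and 9.70, 9.31, 10.20, 10.11 and 9.94 in OIL. The F3.2 pair differed by -1.03 log2 units and the 204 pair by -0.45, while the pairs of 206, F3.1 and F3 differed by -0.02, -0.07 and -0.01. The means were 9.54 ± 0.46 in TAM and 9.85 ± 0.36 in OIL (SD, n = 5 each), with a limma adjusted p of 0.629, and of 0.277 with the block. Its label families ran against the other genes, at 9.39 log2 units in 204 and 206 and 9.90 in the F3 labels, a difference of -0.52, and of -0.55 without F3.1 and F3.2. Cdc25c, the sister phosphatase, was 0.31 log2 units higher in 204 and 206, and Wee1, the kinase that holds CDK1 inactive, 0.20 (0.30 and 0.21 without F3.1 and F3.2). Their treatment differences were -0.08 and 0.02. Foxm1, the transcription factor of G2 genes, was 0.27 log2 units higher in 204 and 206 (0.23 without F3.1 and F3.2), with 4 of 5 TAM arrays above their OIL partner, and differed by 0.11 between treatments.

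The spindle kinases and TPX2 had a median difference between label families of 0.42 log2 units, and of 0.23 without F3.1 and F3.2, with all 4 genes higher in 204 and 206 either way. Plk1, the polo kinase, read 9.30, 9.26, 9.10, 8.80 and 9.16 log2 units in TAM and 9.28, 9.29, 8.60, 8.56 and 9.05 in OIL, with means of 9.12 ± 0.20 in TAM and 8.96 ± 0.36 in OIL (SD, n = 5 each). The 4 arrays of 204 and 206 were the highest, and the label difference was 0.40 log2 units, and 0.18 without F3.1 and F3.2. Ttk, a checkpoint kinase also called MPS1, read 8.83, 8.85, 8.43, 8.29 and 8.49 in TAM and 8.73, 8.74, 8.17, 7.98 and 8.43 in OIL. It was higher in TAM in all 5 pairs by 0.17 on average (8.58 ± 0.25 in TAM and 8.41 ± 0.33 in OIL, SD, n = 5 each, limma adjusted p of 0.739, and of 0.184 with the block). Its label spread gave a limma adjusted p of 0.019, with 8.78 in 204 and 206 and 8.30 in the F3 labels, and its difference of 0.49 was 0.32 without F3.1 and F3.2. Tpx2, which activates Aurora A on the spindle, read 9.57, 9.53, 9.22, 8.83 and 9.23 in TAM and 9.42, 9.58, 9.06, 8.98 and 9.26 in OIL. These groups overlapped fully (9.28 ± 0.30 in TAM and 9.26 ± 0.25 in OIL, SD, n = 5 each), and the label spread gave a limma adjusted p of 0.036. Its means were 9.52 in 204 and 206 and 9.10 in the F3 labels, and the difference of 0.43 was 0.28 without F3.1 and F3.2. With the mean of all probe sets per gene, neither Ttk (adjusted p = 0.211) nor Tpx2 (adjusted p = 0.0921) was called by limma. Aurka, the Aurora A kinase, differed by 0.17 between label families, by 0.02 without F3.1 and F3.2, and by -0.02 between treatments.

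The chromosomal passenger complex corrects faulty attachments and guides cytokinesis. All 4 of its genes were higher in 204 and 206, and none had an unadjusted p under 0.05 for treatment in either fit. Aurkb, its kinase, had a label difference of 0.30 log2 units, Birc5 (survivin) one of 0.23, Cdca8 (borealin) one of 0.20 and Incenp, the scaffold, one of 0.11. Without F3.1 and F3.2 these were 0.22, 0.15, 0.16 and 0.10. Their treatment differences were 0.06, -0.00, 0.01 and 0.09 log2 units in the same order. The dimmest probe set of Incenp above the limit differed by 0.51 between TAM and OIL, against 0.09 for its brightest.

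The checkpoint genes had a median label difference of 0.07 log2 units over 4 genes, and of 0.14 without F3.1 and F3.2. Bub1, a checkpoint kinase, read 10.40, 10.36, 10.31, 10.26 and 10.26 log2 units in TAM and 10.16, 10.26, 10.16, 10.08 and 10.12 in OIL. Each TAM array was above its OIL partner and only OIL 206 reached the TAM range. The means of 10.32 ± 0.06 in TAM and 10.16 ± 0.07 in OIL (SD, n = 5 each) differed by only 0.16. The limma adjusted p was 0.283, and 0.147 with the block. The dimmer probe set of Bub1 differed by -0.15 between TAM and OIL and by 0.53 between label families. With the mean of its probe sets, the treatment difference of Bub1 was 0.01. Bub1b (BubR1), Bub3 and Mad2l1, which bind and restrain CDC20, differed between TAM and OIL by -0.02, 0.02 and 0.04 log2 units. Their label differences were 0.05, -0.05 and 0.30 log2 units, and 0.32, -0.14 and 0.17 without F3.1 and F3.2. That of Bub1 was 0.10 in both cases. Bub1b was lowest in label F3 in both treatments, at 9.45 log2 units.

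Kinetochore genes join chromosomes to microtubules, and all 5 were higher in 204 and 206, by a median of 0.31 log2 units; without F3.1 and F3.2, 4 of 5 were, with a median of 0.20. Cenpe, a motor that carries chromosomes to the spindle equator, read 8.91, 8.79, 8.87, 8.85 and 8.86 log2 units in TAM and 8.64, 8.68, 8.45, 8.38 and 8.75 in OIL. No TAM array fell to the level of any OIL array, and the means were 8.86 ± 0.04 in TAM and 8.58 ± 0.16 in OIL (SD, n = 5 each). The difference of 0.28 log2 units had a limma adjusted p of 0.179, and of 0.0925 with the block. The next probe set of Cenpe differed by 0.24 between treatments but by 0.66 between label families, against 0.06 for the brightest (-0.05 without F3.1 and F3.2). Cenpf, a large kinetochore protein of G2 and mitosis, read 9.81, 9.68, 9.06, 9.14 and 9.35 in TAM and 9.68, 9.69, 9.14, 8.99 and 9.53 in OIL. The means barely differed (9.41 ± 0.33 in TAM and 9.41 ± 0.32 in OIL, SD, n = 5 each), while the label families stood at 9.71 in 204 and 206 and 9.20 in the F3 labels. The label spread gave a limma adjusted p of 0.018, and the difference of 0.51 log2 units was 0.28 without F3.1 and F3.2. Ndc80, the microtubule-binding subunit, read 8.83, 8.80, 8.53, 8.32 and 8.63 in TAM and 8.75, 8.40, 8.26, 8.09 and 8.36 in OIL. All 5 pairs were higher in TAM (8.62 ± 0.21 in TAM and 8.37 ± 0.24 in OIL, SD, n = 5 each), by 0.25 on average, with a limma adjusted p of 0.48, and of 0.0813 with the block. The label difference of Ndc80 was 0.33, and 0.20 without F3.1 and F3.2. Its partner Nuf2 differed by 0.09 between treatments and by 0.31 between label families, and Cenpa, the centromeric histone, by -0.02 and 0.15. Without F3.1 and F3.2, the label differences of Nuf2 and Cenpa were 0.20 and 0.06.

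The spindle motors and microtubule proteins all had higher means in TAM and in 204 and 206. Kif11, the Eg5 motor that pushes the spindle poles apart, had the widest label spread of these 5, reading 10.15, 10.10, 9.67, 9.44 and 9.90 log2 units in TAM and 10.07, 9.90, 9.30, 9.05 and 9.73 in OIL. Each TAM array was above its OIL partner, but the spread between labels, 0.86 log2 units, was wider than any pair's difference. The treatment means were 9.85 ± 0.30 in TAM and 9.61 ± 0.42 in OIL (SD, n = 5 each, limma adjusted p of 0.687, and of 0.102 with the block). It averaged 10.05 in 204 and 206 and 9.52 in the F3 labels, the largest difference of the list with all labels at 0.54, with an F-test adjusted p of 0.012 by limma, and the difference was 0.24 without F3.1 and F3.2. Both other probe sets of Kif11 were 0.44 and 0.51 higher in 204 and 206. Kif2c (MCAK), which shortens microtubules at kinetochores, read 9.10, 9.002, 8.92, 8.85 and 8.89 in TAM and 8.99, 8.96, 8.68, 8.50 and 8.71 in OIL. It averaged 8.95 ± 0.10 in TAM and 8.77 ± 0.21 in OIL (SD, n = 5 each), with a limma adjusted p of 0.491, and of 0.159 with the block. The label difference of Kif2c was 0.26 log2 units, and 0.21 without F3.1 and F3.2. Hmmr and Nusap1, which organise spindle microtubules, were 0.30 and 0.24 log2 units higher in 204 and 206 (0.13 and 0.17 without F3.1 and F3.2). Kif4, a motor on chromosome arms, differed by 0.13 between label families (0.30 without F3.1 and F3.2) and by 0.01 between treatments.

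Among the genes of cytokinesis, Kif23 and Ect2 had an unadjusted p under 0.05 for treatment and the others did not. Kif23, the motor subunit of centralspindlin, read 9.52, 9.41, 9.30, 9.04 and 9.27 log2 units in TAM and 9.17, 9.21, 8.84, 8.73 and 9.20 in OIL. Only TAM F3.2 lay within the OIL range, and the means were 9.31 ± 0.18 in TAM and 9.03 ± 0.23 in OIL (SD, n = 5 each), with a limma adjusted p of 0.372, and of 0.082 with the block. Its label difference of 0.26 was 0.09 without F3.1 and F3.2. Ect2, which activates RhoA for the contractile ring, read 9.55, 9.29, 9.53, 9.38 and 9.38 in TAM and 9.28, 9.28, 9.24, 9.23 and 9.20 in OIL. Its groups did not overlap, although TAM 206 exceeded the highest OIL array by only 0.0059, and the means were 9.42 ± 0.11 in TAM and 9.25 ± 0.04 in OIL (SD, n = 5 each, limma adjusted p of 0.283, and of 0.163 with the block). Its label difference was 0.02, and 0.06 without F3.1 and F3.2. Racgap1, the other centralspindlin subunit, had a lower TAM mean (-0.09) and was 0.35 log2 units higher in 204 and 206. Kif20a, a midzone motor, was 0.34 higher there, and Prc1, which bundles midzone microtubules, 0.17. For these 3 genes it was 0.34, 0.36 and 0.21 without F3.1 and F3.2.

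All 4 genes grouped here under the exit from mitosis were higher in 204 and 206, with Cdca3 counted among them although it acts at entry. Each had an unadjusted p under 0.05 by limma, where 10.2% of tested genes did in that direction. Their median treatment difference was 0.02 log2 units. Ube2c, the ubiquitin-conjugating enzyme of the APC/C, read 12.04, 12.07, 11.52, 11.31 and 11.85 log2 units in TAM and 11.92, 11.97, 11.37, 11.32 and 11.77 in OIL. Both arrays of each label lay close together (11.76 ± 0.33 in TAM and 11.67 ± 0.31 in OIL, SD, n = 5 each), and its label spread had the smallest limma adjusted p of the list, 0.008. Label F3, at 11.81, was nearer to 204 and 206 than to F3.1 and F3.2, and the label difference of 0.48 was 0.19 without those 2 labels. Cdc20, the APC/C activator, read 11.84, 11.69, 11.42, 11.18 and 11.34 in TAM and 11.71, 11.81, 11.43, 11.32 and 11.47 in OIL. Its family means were 11.76 in 204 and 206 and 11.36 in the F3 labels (label spread, limma adjusted p of 0.045), the difference was 0.40, and 0.35 without F3.1 and F3.2, and it averaged 11.49 ± 0.27 in TAM and 11.55 ± 0.20 in OIL (SD, n = 5 each). Espl1 (separase), which cuts cohesin at anaphase, was 0.32 higher in 204 and 206, and Cdca3, which promotes entry into mitosis through degradation of WEE1, 0.24 (0.26 and 0.16 without F3.1 and F3.2).

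The proliferation markers Mki67 and Top2a had higher TAM means and label differences that depended on F3.1 and F3.2. Top2a, the topoisomerase that untangles sister chromatids, read 11.98, 11.91, 11.86, 11.73 and 11.90 log2 units in TAM and 11.85, 11.70, 11.48, 11.30 and 11.80 in OIL. TAM arrays were above their partner in all 5 pairs, by 0.10 to 0.43 log2 units, and the lowest TAM array lay below 2 of the OIL arrays. The means were 11.88 ± 0.09 in TAM and 11.63 ± 0.23 in OIL (SD, n = 5 each), with a limma adjusted p of 0.361, and of 0.099 with the block. Its label difference was 0.18 log2 units, and 0.01 without F3.1 and F3.2. Mki67, which coats mitotic chromosomes, differed by 0.17 between treatments and by 0.23 between label families, the second of which was 0.04 without F3.1 and F3.2.

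**Figure D5:**
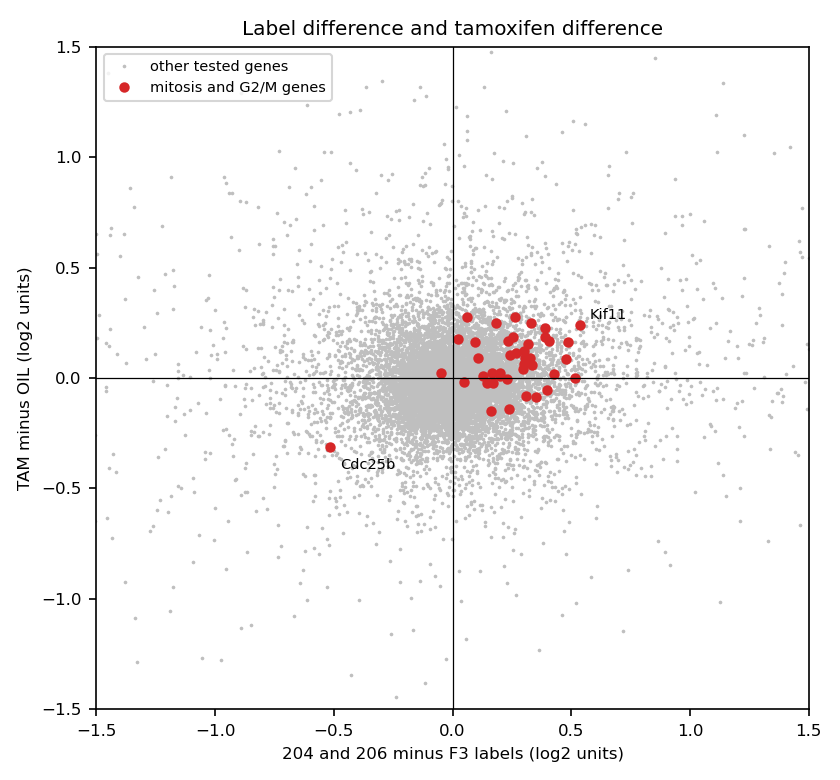
Each point is a gene, with the difference between label families (204 and 206 minus the F3 labels) on the horizontal axis and TAM minus OIL on the vertical axis, both in log2 units, red for the 41 genes and grey for the other tested genes (213 genes lie beyond the axes at 1.5). The red points lie right of 0 except Cdc25b and Bub3, within 0.31 of 0 on the vertical axis.

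The treatment difference was also compared between the label families. No gene was called (0 of 41, with 0% of tested genes called), and the smallest adjusted p of the list was 0.872. At an unadjusted p under 0.05 there were 2 genes (4.88%), where 5.51% of tested genes were. They were Ccnf, with a difference (204 and 206 minus the F3 labels, of TAM minus OIL) of -0.33 log2 units, and Kif4, with one of 0.38. The median over the 41 genes was -0.0053 log2 units, and -0.0024 over all tested genes.

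Other probe sets of the same genes gave a partial check of these readings, since they share RNA and arrays with the brightest ones but not their probes. The 41 genes had 93 probe sets, 14 genes with 1 and 27 with several, and 43 of the probe sets not used above, from 26 genes, were above the dim limit. In 39 of these 43 the mean of 204 and 206 was the higher, with a median difference of 0.31 log2 units. In 35 of 43 the sign of the treatment difference was that of the gene's brightest probe set. It differed at other probe sets of Bub1, Incenp, Kif2c, Tpx2, Cenpa and Racgap1. Of the 43, 5 had an unadjusted p under 0.05 by limma, where 13.0% of tested genes did at their brightest probe set. Probe sets disagreed in the sign of the label difference for Bub3, Ttk (-0.10 at its dimmer probe set) and Cdca3 (-0.12 at its dimmer one above the limit).

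Further genes of the same processes, taken from lists fixed by function, were read in the same fits. Over all tested genes, 48.9% were higher in 204 and 206, and limma called 2.60% between the label families. Of 33 tested kinetochore and centromere genes, 30 were higher in 204 and 206, with a median of 0.24 log2 units. Without F3.1 and F3.2, 28 were higher, with a median of 0.19. With all labels, limma called 2 of the 33. These were Kntc1 (9.02 in 204 and 206 and 8.46 in the F3 labels, difference 0.57, adjusted p = 0.0385) and Cenph (8.45 in 204 and 206 and 7.95 in the F3 labels, difference 0.50, adjusted p = 0.0394). Of 24 spindle and motor genes, 20 were higher in 204 and 206, with a median of 0.20. Without F3.1 and F3.2, 19 were higher, with a median of 0.15. With all labels, limma again called 2. These were Pimreg (8.48 in 204 and 206 and 7.53 in the F3 labels, difference 0.94, adjusted p = 0.0358) and Ckap2l (8.65 in 204 and 206 and 8.11 in the F3 labels, difference 0.53, adjusted p = 0.0385). Without F3.1 and F3.2 these differences were 0.57, 0.47, 0.87 and 0.51 for Kntc1, Cenph, Pimreg and Ckap2l. Over the 19 condensin and cohesin genes the median was 0.08, with 14 higher and 0 called, and the largest were Smc3 (0.25) and Ncapg (0.24) on the higher side and Ncaph2 (-0.12) and Wapl (-0.09) on the lower side. Over 16 APC/C genes it was 0.12, with 13 higher and 0 called, led by Fbxo5 (0.53) and Fzr1 (0.26), with Anapc11 (-0.39) and Anapc7 (-0.05) lowest. Over 6 further cytokinesis genes it was 0.16, with 5 higher and 0 called, led by Diaph3 (0.52) and Shcbp1 (0.24), with Cep55 (-0.06) the lower one. Of 14 further kinases and phosphatases of G2 and mitosis, 9 were higher, with a median of 0.08 and 0 called, led by Melk (0.70) and Pbk (0.33), with Nek2 (-0.14) and Haspin (-0.12) lowest. Without F3.1 and F3.2 the median was 0.09 over the condensin and cohesin genes and 0.05 over the APC/C genes. It was 0.13 over the cytokinesis genes and 0.10 over the kinases and phosphatases. Among the genes just named, Ncaph2 (0.15), Nek2 (0.26) and Anapc7 (0.09) then changed sign. Smc3 (0.08), Ncapg (0.09), Fbxo5 (0.02), Fzr1 (0.18), Anapc11 (-0.24), Diaph3 (0.20), Shcbp1 (0.18) and Pbk (0.12) had smaller differences. Those of Melk (0.85), Wapl (-0.38), Haspin (-0.29) and Cep55 (-0.09) were larger in size. The 29 tested genes of the start of S phase and of replication had a median of 0.13 log2 units, with 23 higher and 0 called. Without F3.1 and F3.2 their median was 0.20, with 26 higher.

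The MuvB, DREAM and NF-Y genes encode parts or partners of the promoter complexes described above, whose binding was not measured here. Their median label difference was -0.07 log2 units, with 6 of 15 higher in 204 and 206 and 0 called. Without F3.1 and F3.2 it was -0.05, again with 6 of 15 higher in 204 and 206. Mybl2, which encodes B-MYB, was 0.30 higher there (0.48 without F3.1 and F3.2) and Rbl2, the p130 subunit of DREAM, differed by -0.25 (-0.44 without them). For treatment, none of the 8 lists had a call without the block. With the block, 3.38% of all tested genes were called. In the lists, limma then called 1 of 15 MuvB, DREAM and NF-Y genes, 1 of 16 APC/C genes and 1 of 29 genes of S phase and replication. The other lists had 0 calls. Limma called Tfdp2, a DREAM and E2F partner (8.31 ± 0.30 in TAM and 8.99 ± 0.33 in OIL, SD, n = 5 each, adjusted p = 0.0385, and 0.145 without the block), which fell by 0.68 log2 units. It also called Fbxo5, the APC/C inhibitor EMI1 (9.68 ± 0.44 in TAM and 9.32 ± 0.45 in OIL, SD, n = 5 each, adjusted p = 0.0245, and 0.593 without the block), which rose in all 5 pairs, by 0.37. The third was Tyms, thymidylate synthase of S phase (6.78 ± 0.22 in TAM and 6.15 ± 0.24 in OIL, SD, n = 5 each, adjusted p = 0.026, and 0.0855 without the block), which rose by 0.64.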

How the data were processed

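RNA of sorted leukemic cells was measured on 10 single-colour expression arrays. The authors deposited log2 expression values; the submitters' processing notes name RMA, with no version. The table held 45101 probe sets, 34945 of them with 1 gene symbol, 932 with several (not used) and 64 controls; 34741 matched GRCm38.p6 RefSeq genes by Entrez ID, used for names. Each gene was read from its brightest probe set by mean over the arrays, and the lowest 30% of 18193 genes by that mean were left out.

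Tests used lmFit and eBayes of limma (version 3.58.1; R 4.3.3, with data.table at version 1.17.8), with Benjamini-Hochberg adjustment over 12735 genes and calls at 0.05. They compared TAM with OIL on 10 arrays, the 5 labels with treatment as covariate, 204 and 206 with the F3 labels on label means, and the TAM effect between those families on label differences. The code was tested on simulated data. The number of arrays, 5 a group, limits the precision.

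The pairing comes from the replicate labels. As a check, deviations from the group means were correlated over genes between the TAM and OIL array of each label, giving r of 0.763 (204), 0.745 (206), 0.585 (F3.1), 0.184 (F3.2) and 0.804 (F3), all above the limit of 0.1. Arrays of different labels were not correlated. The check therefore cannot tell whether the F3.1 and F3.2 arrays are matched to the right partner. A fit with the label as block was an alternative.

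The genes and lists were chosen with earlier results of these data known. Values in every array are given for genes called at an adjusted p in one of these 4 fits or the blocked fit, with an unadjusted p under 0.05 for treatment with or without the block, or among the 8 largest differences between treatments or between label families. Alternatives were a 50% filter on dim genes or none, a further quantile normalization, centring on array medians, the mean of probe sets, eBayes with trend and robust, averaging the OIL F3.1 and F3.2 arrays, and leaving out arrays or labels.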

Additional observations from a re-analysis of the deposited data

Results flagged for a closer look

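Bub1b in the OIL F3 array, at 9.45 log2 units, lay far below the other 4 OIL arrays, which ranged from 9.75 to 9.84. Its gap to the nearest was 0.751 of the group's whole range, above the critical value of 0.71 for 5 samples. It was the only such sample in 82 groups (41 genes, 2 treatments), where chance alone would flag about 1 group in 20. Bub1b was also lowest in label F3 among the TAM arrays, again at 9.45.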

How the results depend on the processing

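For TAM against OIL, 0 of the 41 genes were called under every alternative run, with the label as replicate block or without it, and their smallest adjusted p over 25 settings was 0.0743. The genes called over the whole table were 60, and 26 with the mean of probe sets, 431 with the replicate block and 10 with the OIL F3.1 and F3.2 arrays averaged; leaving out single arrays gave 8 (without OIL F3.1) to 54. The median of the 41 genes, 0.09, lay between 0.0260 and 0.1345 when single arrays were left out, and 16 of the 41 genes changed sign in at least 1 setting while uncalled. The label spread called 6 of the 41 genes, 13 with the mean of probe sets (12.3% of all tested genes) and 0 without labels F3.1 and F3.2 (12.6% of all tested genes). For 204 and 206 against the F3 labels 0 of the 41 genes were called, where 2.60% of tested genes were. With arrays counted as samples 18 were called as higher in 204 and 206, where 6.75% of tested genes were. With eBayes trend and robust 2 were called, and leaving out 1 F3 label gave 0 to 4, the 4 without label F3. The share of all tested genes called in these last settings is not given, so these counts have no background here. The median stayed between 0.2000 and 0.3145. For the TAM effect by label family 0 were called under every alternative run. The causes of these shifts were not tested. Genes near the dim limit are the least precise, and none of the 41 was near it. Alternatives with further quantile normalization of the label comparisons, without labels F3.1 and F3.2, and with pairs left out were chosen after seeing the data.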

Other observations

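Among tested genes outside the list, the 10 whose values over the 10 arrays were most like the mean of the 41 genes were Prdx2 (Pearson's r = 0.969), Skp2 (0.964), Fignl1, Kmt5a, Dut, Tcof1, AW209491, Swi5, Psip1 and Kifc1 (0.956). These correlations are descriptions over arrays that share labels and treatments. They were picked for their likeness to the list's mean, which was itself higher in 204 and 206. Their shared direction therefore follows from the choice. All 10 were higher in 204 and 206 than in the F3 labels, by 0.20 (Swi5) to 0.53 (Skp2) log2 units. Their TAM minus OIL differences ran from 0.02 (Swi5) to 0.22 (Kifc1). Of the 10, Kifc1, a spindle motor, was on one of the lists named in the report.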
